A study of Arabidopsis thaliana with 12 samples.

Results

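Transcripts on which the *phyB-77* and *bri1-5* mutations did not act independently were sought in Arabidopsis seedlings and sorted by the single mutant that the double mutant resembled. All 12 arrays of the series entered the comparison, 3 for each of 4 genotypes. For each probe set, the interaction was the log2 difference between *phyB-77 bri1-5* and *bri1-5* minus the log2 difference between *phyB-77* and Ws-2. A value of 0 means that each mutation multiplied the signal by the same factor whether or not the other was present. An interaction was called where the adjusted p of limma's moderated test was under 0.01, with Benjamini-Hochberg adjustment over all 22746 probe sets that are not array controls. It was called for 3128 probe sets, or 13.8% of those tested, and only these are described as non-additive.

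The Ws-2 wild type was compared with *phyB-77*, an EMS-induced allele with a premature stop codon in the photoreceptor gene *PHYB*, first isolated as *gul2-1* in the Ws-2 background. The second single mutant, *bri1-5*, carries a weak allele of *BRI1*, which encodes the brassinosteroid (BR) receptor, and keeps part of the receptor's function. The double mutant *phyB-77 bri1-5* carries both alleles, and each mutant genotype is a single line. Whole seedlings of every genotype were 7 days old and came from continuous red light, although a legend of the study gives a shorter time. The arrays of a genotype are labelled as biological replicates, with nothing on how the plants were grown apart, so p-values reflect only how far these 3 arrays differ from each other. The levels of *PHYB* and *BRI1* themselves were not analysed here, so the genotypes were taken from the labels.

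Phytochrome B is the main receptor of red light in seedlings past germination. Activated by red light, it moves into the nucleus and promotes the removal of the PIF transcription factors, which otherwise drive hypocotyl elongation. BRs bind to BRI1 at the cell surface, and the signal leads to dephosphorylation of BZR1 and its relatives, which switch on growth genes and repress the genes of BR synthesis. The 4 genotypes were profiled to find genes under the control of both light and BRs.

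Signals were on a log2 scale, as deposited, and had been through RMA, a method that corrects background, equalizes the arrays and summarizes each probe set. Array medians lay between 5.87 and 5.99, and arrays correlated at 0.993 to 0.998 within a genotype and at 0.969 to 0.988 between genotypes. The median standard error of an interaction was 0.148, against 0.105 for a difference between 2 genotypes. The control probe set for 25S ribosomal RNA read 5.87 to 6.06 in Ws-2, 5.98 to 6.41 in *phyB-77*, 7.5 to 8.14 in *bri1-5* and 6.55 to 7.07 in *phyB-77 bri1-5*. It was therefore highest on the *bri1-5* arrays, with an interaction of -1.09 (adjusted p = 0.0015 in the fit with controls kept), and its part in the transcripts that were high in *bri1-5* was not tested. The log2 difference between the 3' and 5' control probe sets also moved with genotype. For GAPDH it was 0.24 to 0.48 in Ws-2, 0.37 to 0.52 in *phyB-77*, 0.1 to 0.25 in *bri1-5* and 0.46 to 0.68 in the double mutant, and for an actin control it was 1.18 to 1.43, 1.31 to 1.53, 1.7 to 1.85 and 1.48 to 1.72. The controls thus ranked the genotypes differently, and the part of RNA quality in the interactions was not tested.

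Most non-additive transcripts had an effect of a mutation that was called in 1 background and not in the other. Among the 3128 non-additive probe sets, the effect of *phyB-77* was called only in the *bri1-5* background for 1381 and only in the Ws-2 background for 822. For 245 it was called in both with the same direction but a different size, for 380 it had opposite directions, and for 300 it was called in neither. As shares of the 3128 these were 44.1%, 26.3%, 7.83%, 12.1% and 9.59%, against 12.3%, 8.23%, 5.43%, 1.67% and 72.4% of all probe sets. The 380 are all such probe sets on the array, since called effects of opposite sign make an interaction call nearly certain. The effect of *bri1-5* was called only without *phyB-77* for 1432 (45.8%) and only with it for 994 (31.8%). Over all probe sets these patterns held 13.3% and 10.1%. Over all 22746 probe sets, *phyB-77* had a called effect for 15.3% in Ws-2 and 19.4% in *bri1-5*, and *bri1-5* for 19.1% in Ws-2 and 16.0% in *phyB-77*. The counts share arrays with the interaction that chose the probe sets and are given as a description.

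The median size of a called interaction was 0.78 on the log2 scale. A size above 2-fold was reached by 787 probe sets and above 4-fold by 37. Next to the threshold, At4g20330 had an interaction of -0.65 (adjusted p = 0.00996) just inside it, and At2g30960 had -0.59 (adjusted p = 0.010) just outside. Positive interactions, in which the double mutant lay above the level that the single mutants predict, numbered 1097 (4.82% of all tested), and negative ones 2031 (8.93%). This split rests on the scaling of the arrays. The median interaction over all probe sets was -0.05 in the deposited values and 0.05 after each array was centred on its median, which gave 1659 positive of 3133 calls. Quantile normalization gave a median of 0.01 and 1439 positive of 3049 calls. The total hardly moved, whereas the share of positive calls was 35.1%, 53.0% and 47.2% in the 3 settings. Membership also shifted, since 2571 of the 3128 were called again after median centring and 2686 after quantile normalization.

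**Figure D1:**
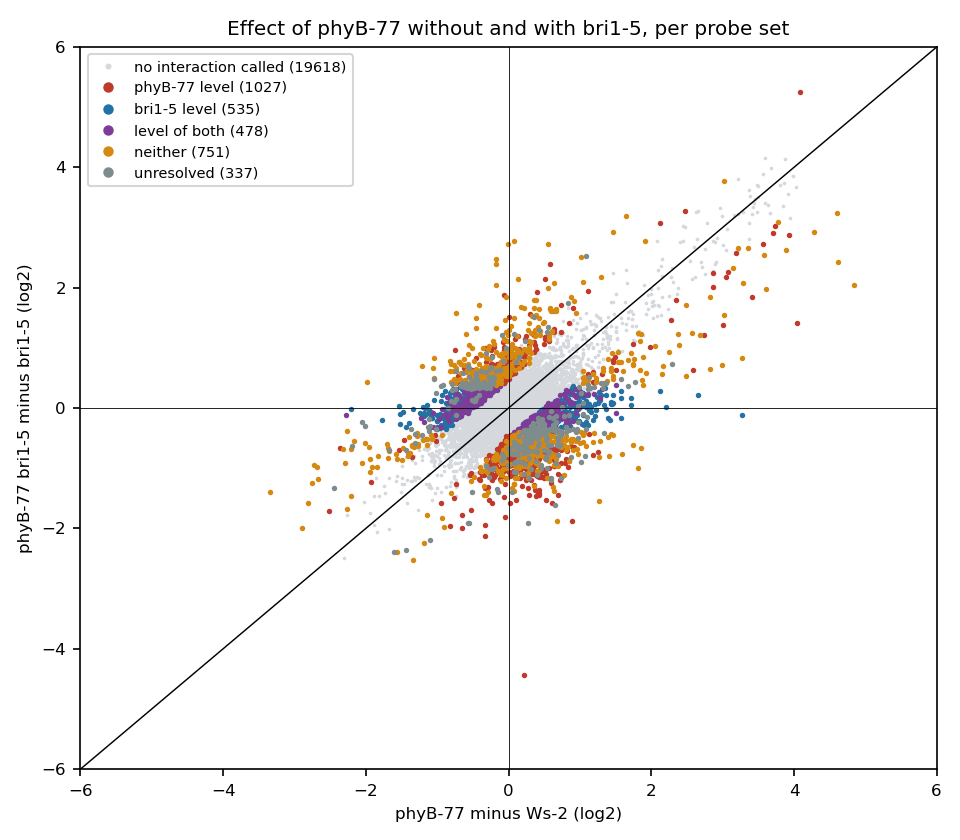
Effect of *phyB-77* per probe set without the *bri1-5* mutation (horizontal axis, *phyB-77* minus Ws-2, log2) and with it (vertical axis, *phyB-77 bri1-5* minus *bri1-5*, log2), with each of the 3128 non-additive probe sets coloured by the class of the double mutant and the others in grey. Points on the diagonal have no interaction; *bri1-5* level points lie near the horizontal axis line, and the isolated point at the bottom is *At4g15620* with an interaction of -4.64.

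The double mutant was called like a single mutant where the 95% interval of their difference lay within 1.5-fold, since a p over the threshold does not show likeness. By this rule it stood at the *phyB-77* level, and away from *bri1-5*, for 1027 of the 3128 probe sets (32.8%). It stood at the *bri1-5* level for 535 (17.1%), at the level of both single mutants for 478 (15.3%) and at neither level for 751 (24.0%), and 337 (10.8%) could not be placed. Over all 22746 probe sets these classes held 10.9%, 8.32%, 65.2%, 5.68% and 9.86%. The classes use the same arrays as the interaction, so the counts are a description and were not tested. They also depend on the margin of likeness. A narrower margin left 326, 151 and 28 probe sets at the *phyB-77* level, the *bri1-5* level and the level of both, with 1799 unplaced, and a margin of 2-fold put 526 at the *phyB-77* level, 2080 at the level of both and 145 at neither.

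The difference of the double mutant from Ws-2 lay within 1.5-fold for 780 of the 1027 probe sets at the *phyB-77* level (75.9%) and for 410 of the 535 at the *bri1-5* level (76.6%), against 272 of the 751 at neither level (36.2%). It did so for 81.1% of all 22746 probe sets, so that nearness to Ws-2 was no more frequent in these classes than over the array. At the *phyB-77* level, 561 probe sets were higher than Ws-2 in *bri1-5* alone and 156 were lower in *bri1-5* alone, with no call in *phyB-77*. Over all probe sets, *bri1-5* was higher than Ws-2 for 10.5% and lower for 8.61%, and *phyB-77* higher for 8.56% and lower for 6.77%. Median centring turned the 561 and 156 into 477 and 253, so the excess of transcripts raised in *bri1-5* became smaller but kept its direction. At the *bri1-5* level, 181 probe sets were higher and 182 lower in *phyB-77* alone, and median centring gave 120 and 283. Class counts also depended on single arrays. Leaving out 1 array gave 651 to 1105 probe sets at the *phyB-77* level and 309 to 527 at the *bri1-5* level, and the lowest counts came from leaving out any array of the double mutant.

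**Figure D2:**
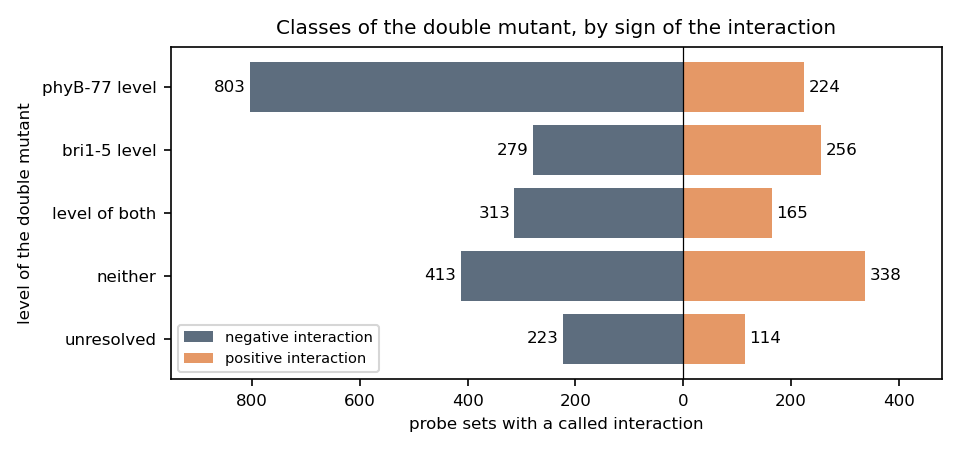
Number of non-additive probe sets in each class of the double mutant, with negative interactions drawn to the left and positive ones to the right of 0. The *phyB-77* level has 803 negative and 224 positive members, whereas the *bri1-5* level is near even with 279 and 256; after median centring the splits are 667 and 357, and 190 and 397.

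Where *phyB-77* and *bri1-5* themselves differed by at least 2-fold, the place of the double mutant between them could be measured, with 0 for *bri1-5* and 1 for *phyB-77*. The 440 non-additive probe sets of this kind had a median place of 0.59 and quartiles of 0.24 and 0.91. The 645 without an interaction call had a median of 0.57 and quartiles of 0.38 and 0.82. The middle stretch from 0.25 to 0.75 held 32.7% of the non-additive and 55.5% of the other probe sets, and the double mutant lay outside both single mutants for 8.18% and 15.9% of the non-additive ones on the *bri1-5* and the *phyB-77* side. The place is computed from the same means as the interaction that sorted the probe sets. The contrast is therefore a description and was not tested.

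At the *phyB-77* level, the largest interaction belonged to *At4g15620*, which encodes a CASP-like membrane protein. Its log2 signals were 4.3, 4.1 and 4.28 in Ws-2, 4.27, 4.53 and 4.51 in *phyB-77*, 8.57, 8.73 and 8.62 in *bri1-5* and 4.49, 3.97 and 4.18 in *phyB-77 bri1-5*. Only the 3 *bri1-5* arrays were high, and those of the other genotypes overlapped near the low end of the array's scale. The interaction was -4.64 (adjusted p = 9.6e-12, standard error 0.17), the largest in size of the series. *ABCF5*, a member of the ABC protein family, read 7.12, 7.52 and 7.26 in Ws-2, 7.84, 8.5 and 8.23 in *phyB-77*, 9.73, 9.82 and 9.72 in *bri1-5* and 7.81, 7.86 and 8.0 in *phyB-77 bri1-5*. Its double mutant arrays lay below all *bri1-5* arrays and overlapped those of *phyB-77*, with an interaction of -2.76 (adjusted p = 2.5e-08, standard error 0.19). It was called and placed at this level in 10 of 20 refits with another setting or without 1 array.

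*LEA76*, a late embryogenesis abundant protein gene, combined a rise in both single mutants with a double mutant that went no further than *phyB-77*. The log2 signals were 5.01, 4.93 and 4.84 in Ws-2, 9.07, 8.99 and 8.86 in *phyB-77*, 7.23, 7.45 and 7.58 in *bri1-5* and 8.89, 8.89 and 8.75 in *phyB-77 bri1-5*. The interaction was -2.62 (adjusted p = 1.9e-09, standard error 0.14), and the double mutant differed from *phyB-77* by -0.13 (95% interval -0.34 to 0.09). *At3g14205*, a gene of the SAC-domain phosphatase family, had log2 differences from Ws-2 of 0.61 in *phyB-77*, 2.04 in *bri1-5* and 0.46 in the double mutant, all called, and an interaction of -2.19. The RNA helicase gene *EMB3011* and *TGH*, which encodes a factor of RNA processing, followed the same course with interactions of -1.98 and -1.85. They were chosen after their values were seen, as was *PMI1*, a gene of chloroplast movement, at -1.85, which kept its class in 14 of the 20 refits.

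Among positive interactions at the *phyB-77* level, *bri1-5* was lower than the double mutant for most of the genes named. *At3g15650* read 7.45, 7.35 and 7.37 in Ws-2, 7.54, 7.21 and 7.26 in *phyB-77*, 5.8, 5.25 and 5.28 in *bri1-5* and 7.33, 7.3 and 7.36 in *phyB-77 bri1-5*. The *bri1-5* arrays were the only low ones, and the interaction was 1.94 (adjusted p = 5.4e-07, standard error 0.18). *At4g16000* read 7.11, 7.04 and 6.94 in Ws-2 and 4.92, 5.34 and 5.05 in *bri1-5*, and 7.71, 7.46 and 7.65 in *phyB-77* and 7.42, 7.5 and 7.55 in the double mutant, which overlapped each other and lay above all other arrays. *DR4*, a protease inhibitor gene named for its repression by drought, fell in all mutants, with log2 differences from Ws-2 of -0.75 in *phyB-77*, -1.94 in *bri1-5* and -0.97 in the double mutant, and had an interaction of 1.72. *FMOGS-OX1*, which encodes an S-oxygenase of aliphatic glucosinolates, had -2.36 in *phyB-77*, -1.5 in *bri1-5* and -2.17 in the double mutant. The falls of the single mutants thus did not add up, and the interaction was 1.69 (adjusted p = 1.1e-06, standard error 0.16).

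At the *bri1-5* level, the genes with the largest negative interactions were highest in *phyB-77*. *DAA1*, a gene for an AAA-type ATPase, read 4.7, 4.71 and 4.91 in Ws-2, 8.29, 7.91 and 7.92 in *phyB-77*, 6.53, 6.56 and 6.6 in *bri1-5* and 6.43, 6.4 and 6.49 in *phyB-77 bri1-5*. The 3 *phyB-77* arrays stood above all others, and the *bri1-5* and double mutant arrays lay close together, though without overlap, above Ws-2. The interaction was -3.39 (adjusted p = 1.1e-10, standard error 0.15), and the double mutant differed from *bri1-5* by -0.12 (95% interval -0.34 to 0.1). *CXE13*, which encodes a carboxylesterase, read 6.75, 6.9 and 6.94 in Ws-2, 9.08, 9.04 and 9.07 in *phyB-77*, 7.24, 7.5 and 7.67 in *bri1-5* and 7.5, 7.51 and 7.43 in *phyB-77 bri1-5*. The *phyB-77* arrays were again highest and Ws-2 lowest, while *bri1-5* and the double mutant overlapped, and the interaction was -2.19 (adjusted p = 1.5e-08, standard error 0.14). *HSP70*, a cytosolic chaperone gene, rose only in *phyB-77*, with log2 differences from Ws-2 of 2.12 in *phyB-77*, 0.05 in *bri1-5* and 0.33 in the double mutant, of which the last 2 were not called, and an interaction of -1.85.

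Several genes of fat mobilization, which turns seed oil into sugar through the glyoxylate cycle, had called interactions of the same sign, but not all did. Malate synthase, *MLS*, read 8.81, 8.64 and 8.63 in Ws-2, 11.38, 11.3 and 11.34 in *phyB-77*, 10.1, 10.09 and 10.17 in *bri1-5* and 10.31, 10.34 and 10.35 in *phyB-77 bri1-5*. All mutant arrays were above Ws-2, those of *phyB-77* by the most, and the interaction was -2.43 (adjusted p = 5.8e-10, standard error 0.12). *ICL*, isocitrate lyase, had log2 differences from Ws-2 of 2.49 in *phyB-77*, 1.11 in *bri1-5* and 1.66 in the double mutant and an interaction of -1.94, but its double mutant lay between the single mutants and at neither level. Phosphoenolpyruvate carboxykinase *PCK1* and the thiolase *KAT5* stood at the *bri1-5* level with interactions of -1.56 and -1.62. *ICL*, *PCK1* and *KAT5* were chosen after their values were seen and form no list that was tested. Another thiolase gene, *PKT3*, had no interaction call, with log2 effects of *phyB-77* of 0.87 in Ws-2 and 0.37 in *bri1-5*.

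Among positive interactions at the *bri1-5* level, *COR15B*, which encodes a cold-regulated chloroplast protein, had the largest of the genes named. It read 8.12, 8.11 and 7.99 in Ws-2, 5.86, 6.01 and 5.71 in *phyB-77*, 7.15, 7.18 and 7.41 in *bri1-5* and 7.31, 7.14 and 7.25 in *phyB-77 bri1-5*. Ws-2 was highest and *phyB-77* lowest on every array, while *bri1-5* and the double mutant overlapped between them, and the interaction was 2.2 (adjusted p = 1.1e-08, standard error 0.14). Ws-2 was also highest and *phyB-77* lowest for the lipase-like gene *At4g28780*, for *At2g43550* and for the transporter-like gene *At4g34950*. Their log2 differences from Ws-2 in *phyB-77* were -1.77, -1.52 and -1.48, those in the double mutant were -1.07, -0.77 and -0.56, and the interactions were 1.57, 1.41 and 1.41.

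Of the 478 probe sets at the level of both single mutants, 149 were higher and 91 lower than Ws-2 in each single mutant. *PCC1*, named for its response to pathogens and the clock, read 8.35, 8.52 and 8.97 in Ws-2, 6.36, 6.3 and 6.34 in *phyB-77*, 6.5, 6.8 and 6.71 in *bri1-5* and 6.69, 6.51 and 6.46 in *phyB-77 bri1-5*. Every mutant array was lower than every Ws-2 array by a similar amount, and the interaction was 2.16 (adjusted p = 2.2e-07, standard error 0.18). *At4g29690*, a gene of the nucleotide pyrophosphatase family, showed the reverse with 5.92, 5.95 and 5.94 in Ws-2, 7.46, 7.38 and 7.46 in *phyB-77*, 7.23, 7.18 and 6.98 in *bri1-5* and 6.9, 7.1 and 7.17 in *phyB-77 bri1-5*. All mutant arrays were higher than Ws-2, and the interaction was -1.57 (adjusted p = 2.6e-07, standard error 0.13), but the class was kept in 11 of the 20 refits. Falls that did not add up were also called for the cytochrome b5 gene *CB5-C* (1.07), the organic cation transporter gene *OCT6* (1.06) and *At1g63310* (1.01). Rises that did not add up were called for *At2g32580* (-1.21), the immune receptor gene *ADR1-L2* (-1.13) and the acyl-activating enzyme gene *AAE16* (-1.13). *At1g63310* kept its class in 14, and *ADR1-L2* and *AAE16* in 15, of the 20 refits.

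**Figure D3:**
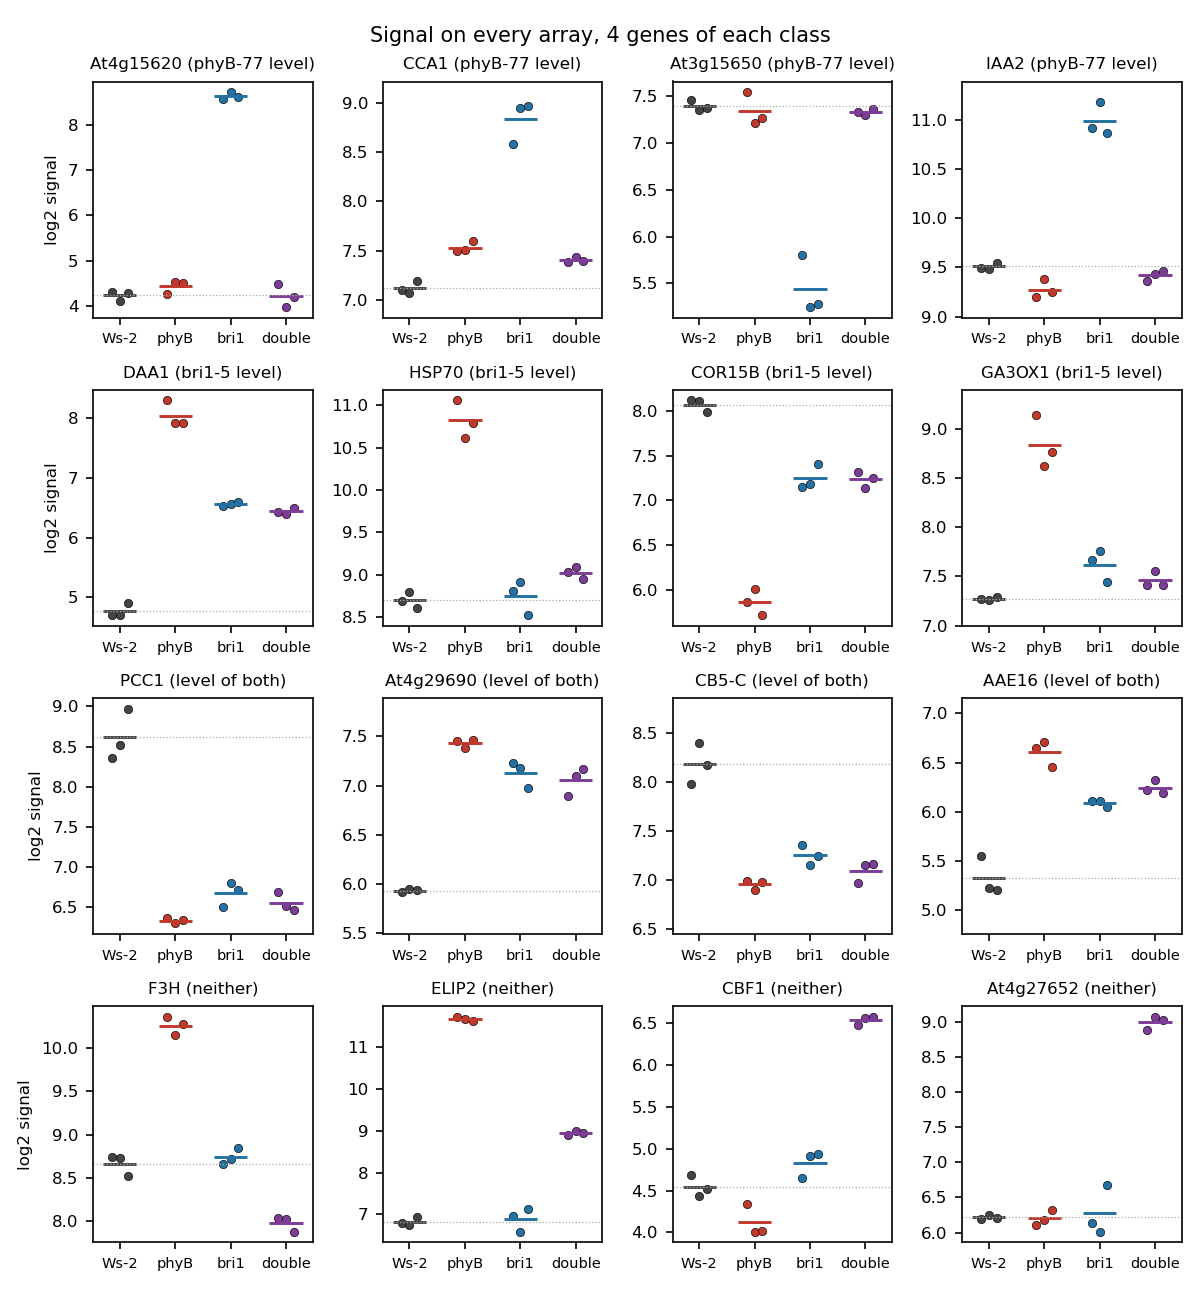
Log2 signal (vertical axes, scaled per gene) of 16 genes on every array, with 1 point per array, a bar at the mean of the 3 arrays of a genotype and a dotted line at the Ws-2 mean; rows hold the *phyB-77* level, the *bri1-5* level, the level of both and neither. In the bottom row, *CBF1* and *At4g27652* are high on the 3 double mutant arrays alone, and *F3H* is lowest there.

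Of the 751 probe sets at neither level, the double mutant lay above both single mutants for 266, below both for 328 and between them for 157. With or without an interaction call, 343, 468 and 481 probe sets of this class had these places. The places use the same means as the interaction, so the split is a description. Neither single mutant was called against Ws-2 for 147 of the 266 and 157 of the 328. Over all non-additive probe sets, 114 were higher and 128 lower than Ws-2 in the double mutant alone, of 350 and 610 with this pattern among all probe sets. The double mutant differed from Ws-2 for 14.6% of all probe sets, 6.55% higher and 8.01% lower. Among the genes named, the largest positive interactions were of this kind. *At4g27652* read 6.19, 6.26 and 6.2 in Ws-2, 6.11, 6.18 and 6.33 in *phyB-77*, 6.14, 6.01 and 6.68 in *bri1-5* and 8.89, 9.07 and 9.02 in *phyB-77 bri1-5*. *At4g27654* read 3.92, 3.93 and 3.99 in Ws-2, 3.97, 3.71 and 3.66 in *phyB-77*, 3.91, 3.93 and 4.52 in *bri1-5* and 6.7, 6.51 and 6.6 in *phyB-77 bri1-5*. *At4g27657* read 5.12, 5.28 and 5.5 in Ws-2, 5.07, 5.58 and 5.49 in *phyB-77*, 5.18, 4.94 and 5.15 in *bri1-5* and 7.76, 7.84 and 7.98 in *phyB-77 bri1-5*. These loci of chromosome 4 are consecutive in the RefSeq gene table, and for all of them the double mutant arrays stood above all others and the remaining genotypes overlapped. Their interactions were 2.73 (adjusted p = 1.8e-08, standard error 0.18), 2.65 (adjusted p = 4e-08, standard error 0.19) and 2.69 (adjusted p = 1.8e-08, standard error 0.18). The probe set of *At2g12050*, which is of a type that can detect several transcripts, had 6.95, 6.91 and 6.95 in the double mutant and 4.24 to 4.78 on the other 9 arrays, with an interaction of 2.58 (adjusted p = 5e-09, standard error 0.16).

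Below both single mutants, *LTP4*, which encodes a lipid transfer protein, had the largest interaction of the genes named. It read 8.55, 8.65 and 8.61 in Ws-2, 9.7, 9.86 and 10.06 in *phyB-77*, 8.25, 8.41 and 8.48 in *bri1-5* and 6.79, 6.96 and 6.75 in *phyB-77 bri1-5*. It was higher in *phyB-77* than in Ws-2 by 1.27, while the double mutant differed from *bri1-5* by -1.55, with no overlap between arrays in either pair, and the interaction was -2.82 (adjusted p = 1.2e-09, standard error 0.15). *At3g05900* read 5.87, 5.72 and 5.66 in Ws-2, 6.66, 6.19 and 6.43 in *phyB-77*, 7.9, 7.78 and 7.72 in *bri1-5* and 5.92, 5.95 and 5.9 in *phyB-77 bri1-5*. It rose in each single mutant, and the double mutant did not differ from Ws-2 beyond the threshold (0.17, adjusted p = 0.3), and the interaction was -2.56 (adjusted p = 4.5e-09, standard error 0.15).

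The names of genes limit how the following groups can be read. By the array's annotation 13513 probe sets stood for 1 gene each, and 12.5% of these were non-additive, whereas another 1295 probe sets were named only in tables of genes that the study had chosen for their change in these samples, and 54.1% of those were non-additive. A list whose members were mostly named through those tables thus holds more calls by the way it was named, and the plot of list shares gives the count among members named by the annotation for each list. Listed genes count as measured only with a named probe set, so the shares do not cover whole pathways. Named were 8 of 24 listed clock genes, 4 of 11 of BR synthesis and 11 of 27 of light signalling. It was 9 of 27 for glucosinolate, 6 of 20 for jasmonate and 10 of 28 for photosynthesis, against 26 of 26 for seed maturation. Besides the genes picked by the rule stated with the processing, further list members are given and were chosen after their values were seen. Several probe sets were available for 146 named genes, and 34 of these genes had a non-additive probe set. Every probe set was non-additive for only 6 of the 34. A call given for a gene therefore describes 1 probe set and need not hold for another of the same gene.

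**Figure D4:**
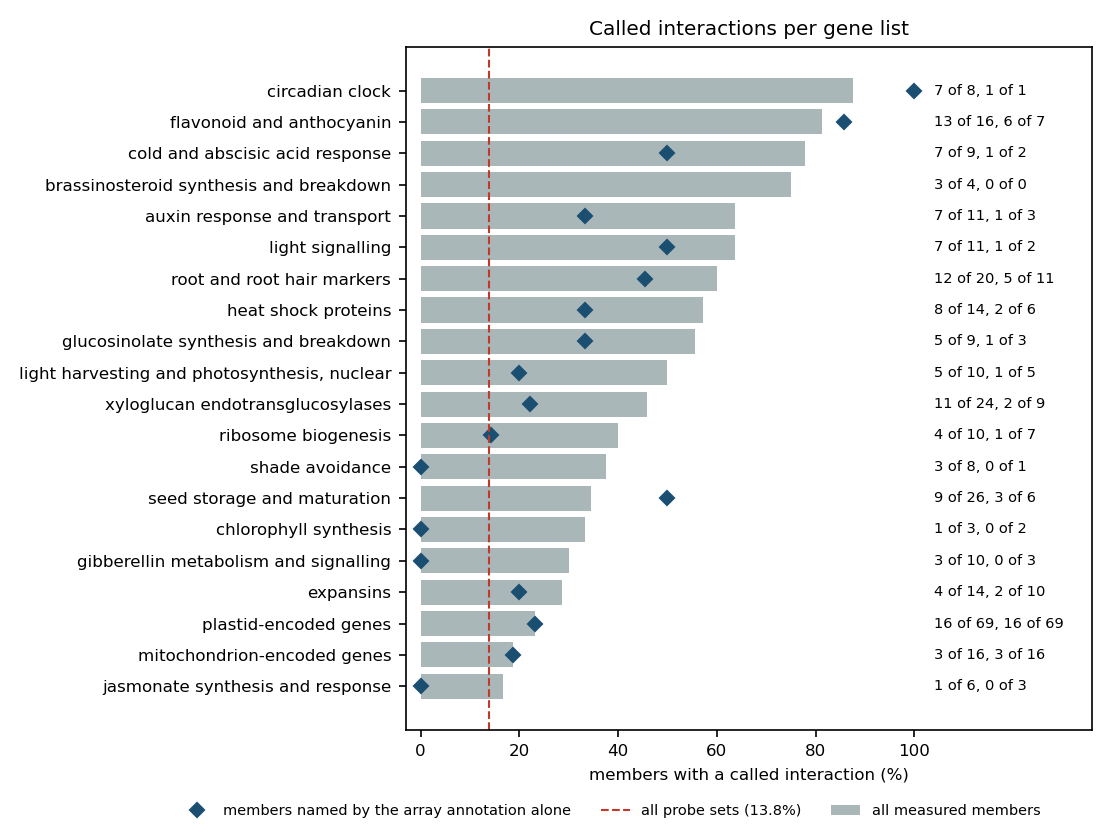
Share of the measured members of each gene list with a called interaction (bars, percent) and the same share among members named by the array annotation alone (diamonds), with both counts at the right and the share over all probe sets, 13.8%, as a dashed line. Flavonoid genes reach 13 of 16 and, by annotation alone, 6 of 7, while jasmonate genes have 1 of 6.

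Genes of BR synthesis are repressed by active BR signalling, and 3 of the 4 measured had a negative interaction. None was named by the annotation. *CYP85A2*, which catalyses the last steps to brassinolide, read 7.11, 7.02 and 7.0 in Ws-2, 8.09, 7.6 and 7.99 in *phyB-77*, 9.53, 9.09 and 9.2 in *bri1-5* and 8.41, 8.46 and 8.32 in *phyB-77 bri1-5*. The order on every array was Ws-2, *phyB-77*, the double mutant and *bri1-5*, and the interaction was -1.73 (adjusted p = 1.8e-06, standard error 0.18). *CPD* and *CYP90D1*, which act earlier in the pathway, rose in *bri1-5* by 1.0 and 0.99 and stood at the *phyB-77* level in the double mutant, with interactions of -0.66 (adjusted p = 0.0012) and -0.78 (0.002). *DWF4*, which encodes the C-22 hydroxylase, had an interaction of -0.08 that was not called. In BR signalling, *PRE3*, a growth-promoting helix-loop-helix gene, had log2 differences from Ws-2 of -1.41 in *phyB-77*, 0.75 in *bri1-5* and 0.0 in the double mutant and a positive interaction of 0.66 (adjusted p = 0.0043). The call was lost without any of 7 single arrays, and the interaction was -6.24 in signal units, with adjusted p = 0.78, on the linear scale, and *IBH1* had 0.13 and was not called.

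Of 11 light signalling genes, 7 were non-additive, 6 of them with a negative interaction, and the annotation named 2 of the 11 and 1 of the 7. *PIF1*, which encodes a phytochrome-interacting repressor of greening, read 6.07, 6.42 and 6.18 in Ws-2, 7.19, 7.13 and 7.34 in *phyB-77*, 7.1, 7.44 and 7.14 in *bri1-5* and 6.58, 6.77 and 6.58 in *phyB-77 bri1-5*. Either mutation alone raised it by 1.0 and 1.0, and the double mutant lay between Ws-2 and both single mutants without overlap, with an interaction of -1.58 (adjusted p = 1.5e-06, standard error 0.16). *HYH*, a bZIP gene of light responses, had 0.61 in *phyB-77*, 0.43 in *bri1-5* and -0.13 in the double mutant, of which only the first was called, and an interaction of -1.17 (adjusted p = 8.5e-05, standard error 0.17). *PIF5* rose only in *bri1-5*, by 1.14, and stood at the *phyB-77* level with an interaction of -1.0, whereas *HY5*, which promotes photomorphogenesis, rose only in *phyB-77*, by 0.89, and stood at the *bri1-5* level with -0.62. *RUP2* and *RUP1*, repressors of UV-B signalling, had interactions of -1.18 and -0.53, and *BBX22* had 0.76. Under median centring or quantile normalization 5 of the 11 were called.

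In the circadian clock, 8 of the 24 listed genes could be named. Of these 8, 7 were non-additive, and the annotation named 1 of them. The hour of sampling is not given in the sources used here. *CCA1*, a morning transcription factor of the clock's core, read 7.1, 7.07 and 7.2 in Ws-2, 7.5, 7.5 and 7.59 in *phyB-77*, 8.58, 8.95 and 8.97 in *bri1-5* and 7.38, 7.43 and 7.4 in *phyB-77 bri1-5*. The *bri1-5* arrays stood far above the others, and those of *phyB-77* and the double mutant lay above Ws-2, with an interaction of -1.84 (adjusted p = 8.5e-08, standard error 0.14). Its partner *LHY* rose in *bri1-5* by 1.35 and differed from Ws-2 by 0.06 in *phyB-77* and 0.3 in the double mutant, neither of which was called, with an interaction of -1.11 (adjusted p = 1.7e-05, standard error 0.14). *LNK2*, an activator of clock genes, took the same course with -0.63. *GI* and *RVE7* rose in *phyB-77* by 0.99 and 0.92 and stood at the *bri1-5* level, with interactions of -0.86 and -1.06. *ELF3*, of the evening complex, rose in each single mutant but was not called in the double mutant (0.81 in *phyB-77*, 0.87 in *bri1-5* and 0.35 in the double mutant), with an interaction of -1.34 (adjusted p = 3e-06, standard error 0.14). *FKF1*, a blue light receptor gene, was the member with a positive interaction, 0.96.

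The non-additive genes of auxin response and transport shared 1 pattern. Of 11 measured, 7 were non-additive, all with negative interactions and all at the *phyB-77* level, and the annotation named 3 of the 11 and 1 of the 7. *IAA2*, an early auxin response gene, read 9.5, 9.49 and 9.55 in Ws-2, 9.2, 9.38 and 9.25 in *phyB-77*, 10.92, 11.18 and 10.87 in *bri1-5* and 9.36, 9.44 and 9.47 in *phyB-77 bri1-5*. The *bri1-5* arrays were the only high ones, and the interaction was -1.33 (adjusted p = 1.6e-06, standard error 0.13). *IAA1*, *IAA16* and *IAA4*, of the same family, rose in *bri1-5* by 0.91, 0.72 and 0.79, with interactions of -1.06, -0.92 and -0.83. *GH3.5* and *GH3.6*, which encode enzymes that conjugate auxin to amino acids, rose by 1.0 and 0.99, and the auxin efflux carrier gene *PIN3* rose by 0.73. None of the 7 was called in *phyB-77* or in the double mutant against Ws-2. The members not called were *GH3.3*, *SAUR9*, *IAA29* and *IAA17*, with interactions from -0.32 to 0.34.

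Shade avoidance genes overlap with these pathways, and 3 of 8 were called. The annotation named 1 of the 8 and none of those called. *HAT1* rose in *bri1-5* by 0.98 and stood at the *phyB-77* level (-0.79). The related homeobox gene *ATHB2*, a classic target of phytochrome control, read 6.43, 6.38 and 6.57 in Ws-2, 7.04, 6.87 and 6.86 in *phyB-77*, 8.08, 7.93 and 7.76 in *bri1-5* and 7.73, 7.63 and 7.62 in *phyB-77 bri1-5*. The double mutant overlapped no other genotype but lay within the margin of *bri1-5*, and the interaction was -0.73 (adjusted p = 0.0009, standard error 0.14). *XTH15*, which encodes a xyloglucan endotransglucosylase of the cell wall, rose in all mutants, with log2 differences of 1.84 in *phyB-77*, 1.62 in *bri1-5* and 2.26 in the double mutant, with an interaction of -1.2. On the linear scale this interaction was no longer called (adjusted p = 0.033).

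Flavonoid and anthocyanin genes lay mostly at neither level, with 10 of the 13 called there. Of 16 measured, 13 were non-additive, all negative, and the median over the 16 was -1.4 against -0.05 over all probe sets. The annotation named 7 of the 16 and 6 of the 13. *F3H*, flavanone 3-hydroxylase, read 8.75, 8.73 and 8.52 in Ws-2, 10.36, 10.15 and 10.27 in *phyB-77*, 8.66, 8.72 and 8.85 in *bri1-5* and 8.04, 8.03 and 7.88 in *phyB-77 bri1-5*. The *phyB-77* arrays were the highest, and the double mutant arrays lay below Ws-2 and *bri1-5*, which overlapped, with an interaction of -2.35 (adjusted p = 4.1e-09, standard error 0.14). *UGT75C1*, an anthocyanin glucosyltransferase, read 5.71, 5.43 and 5.65 in Ws-2, 7.41, 7.22 and 7.37 in *phyB-77*, 5.47, 5.63 and 5.67 in *bri1-5* and 5.12, 4.9 and 4.92 in *phyB-77 bri1-5*, in the same order, with an interaction of -2.35 (adjusted p = 5.5e-09, standard error 0.14). *TT19*, a glutathione S-transferase for anthocyanin transport to the vacuole, read 6.14, 6.01 and 6.05 in Ws-2, 8.01, 7.95 and 7.78 in *phyB-77*, 5.67, 5.81 and 5.83 in *bri1-5* and 4.95, 5.22 and 5.12 in *phyB-77 bri1-5*, and *bri1-5* was not called against Ws-2, with an interaction of -2.52 (adjusted p = 1.9e-09, standard error 0.14).

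Other genes of this pathway were also highest in *phyB-77*. *PAP1*, the MYB activator of anthocyanin synthesis, had log2 differences from Ws-2 of 2.83 in *phyB-77*, -0.92 in *bri1-5* and -0.26 in the double mutant and an interaction of -2.18. *DFR*, dihydroflavonol reductase, had 1.27 in *phyB-77*, -0.14 in *bri1-5* and -0.95 in the double mutant and -2.08. *CHS*, chalcone synthase at the entry of the pathway, had 1.87 in *phyB-77*, 0.09 in *bri1-5* and 0.55 in the double mutant and -1.41, so that it stayed above Ws-2 in the double mutant. Of the 13, 12 rose in *phyB-77*, the exception being *UGT78D2* (0.26, not called), and none rose in *bri1-5*. In the double mutant 6 were lower than Ws-2, *CHS* and *MYB111* were higher, and 5 were not called. The direction of all 13 held under median centring and quantile normalization. *MYBL2*, *UGT78D1* and *PAL1* were not called, and the last 2 had -0.43 and -0.14.

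**Figure D5:**
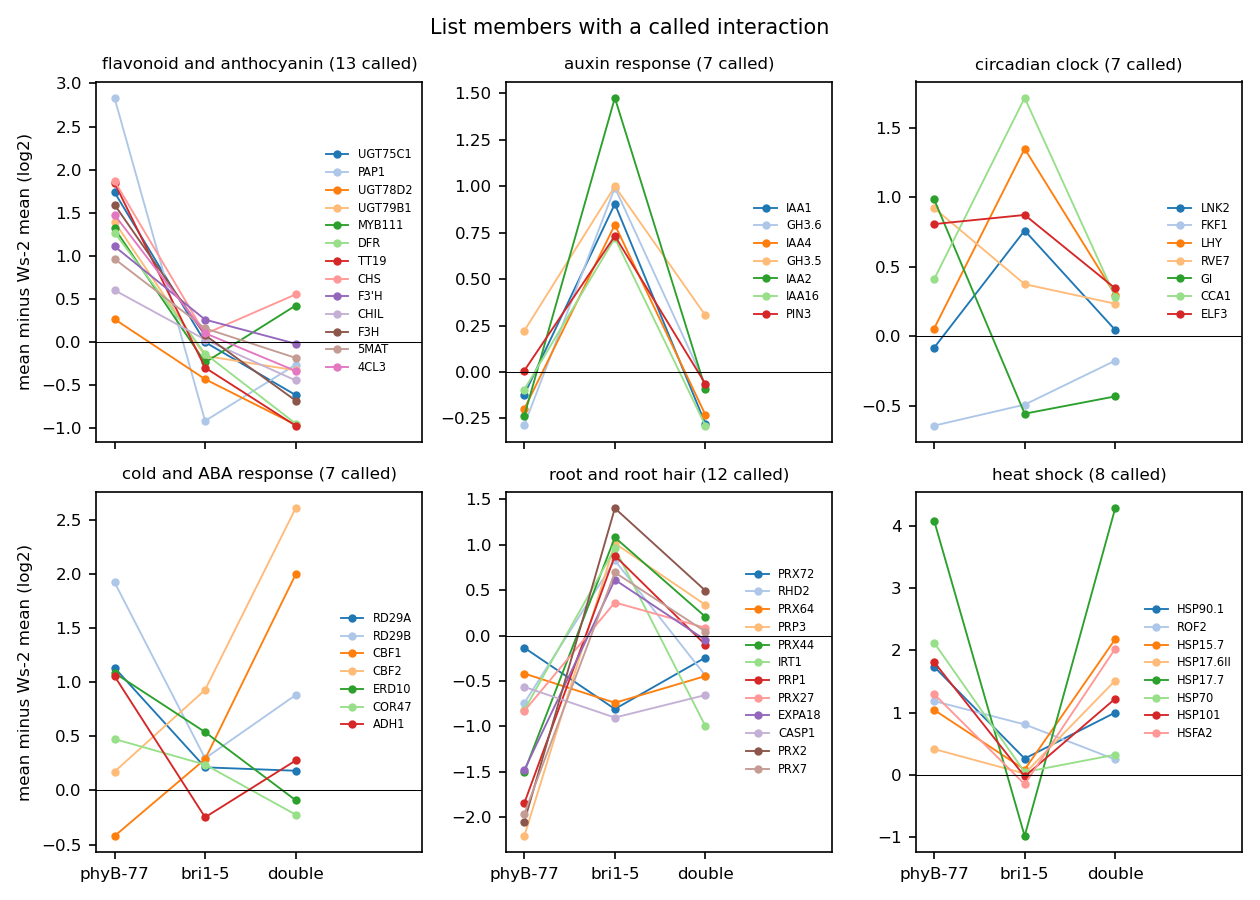
Mean log2 difference from Ws-2 (vertical axes) in *phyB-77*, *bri1-5* and the double mutant for the non-additive members of 6 gene lists, with 1 line per gene that joins genotypes and not an order. Flavonoid genes are highest in *phyB-77*, auxin genes rise in *bri1-5* alone, and *CBF1* and *CBF2* are highest in the double mutant.

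Of 10 measured nuclear genes of light harvesting and photosynthesis, 5 were non-additive, and the annotation named 5 of the 10 and 1 of those called. The count was 3 under quantile normalization and without any 1 of 7 arrays, which were Ws-2 replicates 2 and 3, *phyB-77* replicates 1 and 3 and the 3 of the double mutant. *ELIP2* and *ELIP1*, early light-induced proteins of the thylakoid, rose in *phyB-77* by 4.84 and 4.62 on the log2 scale. *ELIP2* read 6.8, 6.74 and 6.95 in Ws-2, 11.71, 11.67 and 11.63 in *phyB-77*, 6.96, 6.59 and 7.14 in *bri1-5* and 8.91, 8.99 and 8.95 in *phyB-77 bri1-5*. The double mutant lay between the single mutants without overlap, and the interactions were -2.79 (adjusted p = 4.1e-09, standard error 0.16) for *ELIP2* and -2.2 (adjusted p = 1.6e-07, standard error 0.18) for *ELIP1*. *PORA*, the protochlorophyllide reductase of etiolated tissue, had 4.6 in *phyB-77*, 0.69 in *bri1-5* and 3.93 in the double mutant and an interaction of -1.36 (adjusted p = 2.7e-06, standard error 0.15), and *PORB* and *CHLM*, the other measured genes of chlorophyll synthesis, were not called. The light-harvesting genes *LHCB6*, *LHCA3* and *LHCB4.1* fell in *phyB-77* by log2 differences of -0.71, -0.71 and -0.53 and not in the double mutant, with positive interactions of 0.71, 0.6 and 0.54. Under quantile normalization 1 positive interaction was left in the photosynthesis list, and median centring gave 5. Its members without a call were *RCA*, *PSAE1*, *LHCB4.2*, *PSBP1* and *LHCB4.3*, with interactions from 0.27 to 0.46.

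Seed maturation genes mostly had no interaction call, with 17 of the 26 measured, although all 26 were higher in *phyB-77* than in Ws-2. The annotation named 6 of the 26 and 3 of the 9 called. Among these 9, 8 were negative, as in *LEA76* above. *LEA4-5* read 6.49, 6.16 and 6.39 in Ws-2, 9.03, 8.98 and 9.09 in *phyB-77*, 7.15, 7.24 and 7.35 in *bri1-5* and 8.63, 8.47 and 8.28 in *phyB-77 bri1-5*. All 4 genotypes were apart, with *phyB-77* highest, and the interaction was -1.47 (adjusted p = 1.8e-06, standard error 0.15). *ECP63*, of the same protein class, had 4.28 in *phyB-77*, 0.85 in *bri1-5* and 3.79 in the double mutant and an interaction of -1.34, and the cruciferin gene *CRA1* had -0.69. *TIP3;2*, a channel of the protein storage vacuole, was the exception with 3.02 in *phyB-77*, -1.22 in *bri1-5* and 2.56 in the double mutant and an interaction of 0.76. The mean log2 signal over this list was 5.91 to 6.03 in Ws-2, 9.07 to 9.09 in *phyB-77*, 5.93 to 6.08 in *bri1-5* and 8.64 to 8.7 in the double mutant.

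Cold and abscisic acid genes split by the sign of the interaction. Of 9 measured, 7 were non-additive, 2 positive and 5 negative, and the annotation named 2 of the 9 and 1 of the 7. *CBF1*, an activator of cold-responsive genes, read 4.68, 4.43 and 4.51 in Ws-2, 4.34, 4.01 and 4.02 in *phyB-77*, 4.65, 4.91 and 4.94 in *bri1-5* and 6.48, 6.56 and 6.57 in *phyB-77 bri1-5*. The double mutant arrays were above all others, and the interaction was 2.13 (adjusted p = 5e-08, standard error 0.16). *CBF2*, its tandem relative, read 5.54, 5.23 and 5.18 in Ws-2, 5.64, 5.46 and 5.37 in *phyB-77*, 6.1, 6.48 and 6.15 in *bri1-5* and 7.96, 7.99 and 7.81 in *phyB-77 bri1-5*, with an interaction of 1.5 (adjusted p = 4.7e-06, standard error 0.17). *ERD10*, a dehydrin, rose in each single mutant and was not called in the double mutant (1.08 in *phyB-77*, 0.54 in *bri1-5* and -0.09 in the double mutant), and its interaction was -1.71 (adjusted p = 1e-07, standard error 0.13). *RD29B* had 1.92 in *phyB-77*, 0.3 in *bri1-5* and 0.88 in the double mutant and -1.34, and *RD29A* and *COR47* had interactions of -1.16 and -0.94. *COR413IM1*, a cold-regulated gene of the chloroplast envelope that was picked after its value was seen, fell in both single mutants (-1.04 and -1.15) and was -0.32 from Ws-2 in the double mutant, with an interaction of 1.87. *COR15A* had an interaction of -0.24 that was not called (adjusted p = 0.23).

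Heat shock genes also split. Of 14 measured, 8 were non-additive, 4 in each direction, and median centring or quantile normalization gave 6 positive and 3 negative. The annotation named 6 of the 14 and 2 of the 8. The chaperone genes *HSP70* and *HSP90.1* and the co-chaperone gene *ROF2* had negative interactions of -1.85, -1.0 and -1.75. *ROF2* read 3.7, 4.02 and 3.67 in Ws-2, 5.04, 4.9 and 5.01 in *phyB-77*, 4.52, 4.6 and 4.7 in *bri1-5* and 3.83, 4.29 and 4.03 in *phyB-77 bri1-5*. It rose in each single mutant, and the double mutant was not called against Ws-2. Its probe set was among the 40% dimmest. Among small heat shock genes, *HSP17.7* had 4.08 in *phyB-77*, -0.98 in *bri1-5* and 4.28 in the double mutant and an interaction of 1.17 (adjusted p = 5.3e-06, standard error 0.13), and *HSP15.7* and *HSP17.6II* had 1.05 and 1.07. Their regulator *HSFA2* rose by 1.3 in *phyB-77* and 2.03 in the double mutant, with an interaction of 0.87. The interaction of *HSP17.7* was not called on the linear scale (adjusted p = 0.085).

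Gibberellins promote elongation together with BRs, and 3 of 10 measured genes of this pathway were called. All 3 calls were named through the study's tables, and none of the 3 members named by the annotation was called. *GA3OX1*, which makes the active hormone, read 7.27, 7.25 and 7.29 in Ws-2, 9.14, 8.62 and 8.76 in *phyB-77*, 7.66, 7.75 and 7.44 in *bri1-5* and 7.41, 7.55 and 7.42 in *phyB-77 bri1-5*. The *phyB-77* arrays were the only high ones, and the interaction was -1.73 (adjusted p = 9.4e-07, standard error 0.17). *GA2OX1*, which inactivates gibberellins, rose in *phyB-77* by 0.99 and stood at the *bri1-5* level with -1.2 (adjusted p = 1.7e-05, standard error 0.15). *GA2OX2* had an interaction of -0.53 (adjusted p = 0.0076), which median centring and the omission of single arrays ended.

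Among genes that loosen the cell wall, 11 of 24 xyloglucan endotransglucosylase genes were non-additive, 8 positive and 3 negative, and the annotation named 9 of the 24 and 2 of the 11. *XTH6* read 8.58, 8.44 and 8.74 in Ws-2, 5.68, 5.79 and 5.86 in *phyB-77*, 9.62, 9.58 and 9.6 in *bri1-5* and 8.11, 7.95 and 8.03 in *phyB-77 bri1-5*. All genotypes were apart, with *phyB-77* lowest and *bri1-5* highest, and the interaction was 1.24 (adjusted p = 2.9e-06, standard error 0.13). *XTH12*, *XTH13* and *XTH14* were likewise lowest in *phyB-77* and highest in *bri1-5*, with interactions of 1.03, 0.86 and 0.93. *XTH17* fell only in *bri1-5*, by a log2 difference of -1.52, and had an interaction of 1.03. Of 14 expansin genes, 4 were called, and the annotation named 10 of the 14 and 2 of the 4. With array weights 7 were called. *EXPA5* read 9.3, 9.62 and 9.51 in Ws-2, 8.86, 8.74 and 8.61 in *phyB-77*, 8.61, 8.47 and 8.73 in *bri1-5* and 9.02, 8.72 and 8.74 in *phyB-77 bri1-5*. All mutants were lower than Ws-2 and overlapped, with an interaction of 0.97 (adjusted p = 0.0002, standard error 0.16). *EXPA4* rose in *phyB-77* alone, by 0.69, with -0.72, and *EXPA18* and *EXPA3* had 0.82 and 0.59.

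Roots are part of whole seedlings, and 12 of 20 root and root hair markers were non-additive, 10 of them positive, with 5 of 11 among those named by the annotation. *PRP3*, a root hair wall protein gene, read 7.63, 7.85 and 7.85 in Ws-2, 5.69, 5.66 and 5.36 in *phyB-77*, 8.87, 8.82 and 8.68 in *bri1-5* and 8.07, 8.06 and 8.21 in *phyB-77 bri1-5*. It was lowered by *phyB-77* in Ws-2 by a log2 difference of -2.21 and in *bri1-5* by -0.68, so the interaction was 1.53 (adjusted p = 9.4e-07, standard error 0.15). The peroxidase gene *PRX7* had -1.96 in *phyB-77*, 0.69 in *bri1-5* and 0.04 in the double mutant and an interaction of 1.31 (adjusted p = 2.9e-05, standard error 0.17). *CASP1*, of the Casparian strip of the endodermis, fell in all mutants by a like amount (-0.56 in *phyB-77*, -0.9 in *bri1-5* and -0.65 in the double mutant), with 0.81. In signal units, the interactions of *PRP3*, *PRX7* and *EXPA18* were not called (adjusted p = 0.92, 0.46 and 0.74), nor was that of *XTH17* (0.018), and that of *XTH6* turned to -184.6 (adjusted p = 0.0035).

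The mean log2 signal over the 20 root markers was 8.02 to 8.04 in Ws-2, 7.09 to 7.21 in *phyB-77*, 8.35 to 8.45 in *bri1-5* and 7.92 to 7.97 in *phyB-77 bri1-5*. Over the nuclear photosynthesis list it was 11.51 to 11.61, 12.15 to 12.22, 11.47 to 11.59 and 11.99 to 12.01, although this list holds *ELIP1* and *ELIP2* and 7 of its 10 members were lower in *phyB-77* than in Ws-2. The genotypes thus differed in the level of tissue markers. In RNA of whole seedlings, fewer cells of a tissue and less RNA per cell cannot be told apart, and the part of tissue shares in the interactions was not tested.

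Of 9 glucosinolate genes, 5 were non-additive, 4 of them at the *phyB-77* level, and the annotation named 3 of the 9 and 1 of the 5. Besides *FMOGS-OX1*, the chain elongation gene *MAM3* read 5.26, 4.97 and 5.06 in Ws-2, 4.44, 4.34 and 4.56 in *phyB-77*, 6.69, 6.09 and 6.63 in *bri1-5* and 4.26, 4.56 and 4.61 in *phyB-77 bri1-5*. It was above Ws-2 in *bri1-5* and below it in the other mutants, and the interaction was -1.34 (adjusted p = 8.1e-05, standard error 0.2). *FMOGS-OX3* stood at the *bri1-5* level with 0.81, and *BCAT4* and the regulator *MYB28* fell most in *phyB-77* and the double mutant, with 0.81 and 0.64. *ESM1*, a modifier of glucosinolate breakdown that was picked after its value was seen, had -3.34 in *phyB-77*, -0.97 in *bri1-5* and -2.36 in the double mutant and an interaction of 1.94 (adjusted p = 4.1e-07, standard error 0.17). Of 6 jasmonate genes only *VSP1*, a vegetative storage protein, was called. It had -1.13 in *phyB-77*, -2.11 in *bri1-5* and -2.43 in the double mutant and an interaction of 0.82 (adjusted p = 0.0041), which was lost without any of 4 single arrays. *WRKY70*, the single measured gene of the salicylic acid list, had an interaction of 0.74 that was not called (adjusted p = 0.032), but was called without *bri1-5* replicate 1.

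Of 10 measured genes for making ribosomes, 4 were non-additive, all negative and all raised in *bri1-5*. The annotation named 7 of the 10 and 1 of the 4. A call for 1 of 7 is near the 12.5% of all probe sets named by the annotation, so the list shows no excess among them. *NAP57*, the pseudouridine synthase of the nucleolus, read 6.4, 6.29 and 6.4 in Ws-2, 7.39, 7.12 and 7.27 in *phyB-77*, 8.68, 8.69 and 8.52 in *bri1-5* and 7.96, 7.92 and 7.89 in *phyB-77 bri1-5*. The genotypes were apart in the order Ws-2, *phyB-77*, double mutant and *bri1-5*, and the interaction was -1.6 (adjusted p = 1.3e-07, standard error 0.13). *At4g25730*, a gene for a ribosomal RNA methyltransferase, read 4.91, 4.96 and 4.8 in Ws-2, 5.51, 5.17 and 5.23 in *phyB-77*, 6.32, 6.41 and 6.8 in *bri1-5* and 5.16, 5.11 and 5.01 in *phyB-77 bri1-5* and stood at the *phyB-77* level, with -1.83 (adjusted p = 6.1e-07, standard error 0.17). *NOP56*, a component of nucleolar ribonucleoproteins, had 0.45 in *phyB-77*, 1.79 in *bri1-5* and 0.85 in the double mutant and -1.39, and *NUG2* had -0.8. The 25S ribosomal RNA control had the same order of genotypes as *NAP57*.

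Of 69 plastid genes, all named by the annotation, 16 were non-additive, 3 positive and 13 negative. *rpl22*, a ribosomal protein gene, read 8.75, 9.12 and 8.97 in Ws-2, 10.06, 10.23 and 10.11 in *phyB-77*, 10.83, 10.86 and 10.45 in *bri1-5* and 9.93, 9.86 and 9.99 in *phyB-77 bri1-5*. All mutants were above Ws-2, the double mutant no more than *phyB-77*, and the interaction was -1.97 (adjusted p = 2e-07, standard error 0.16). *rpl16* read 8.08, 8.13 and 7.98 in Ws-2, 9.09, 8.94 and 9.26 in *phyB-77*, 12.18, 12.18 and 11.89 in *bri1-5* and 11.94, 11.87 and 12.07 in *phyB-77 bri1-5*. It was raised most where BRI1 was impaired and stood at the *bri1-5* level, with -1.16 (adjusted p = 2.1e-05, standard error 0.15), although in signal units this was not called (adjusted p = 0.16). *rpl36* had -1.3, and *psbM*, of photosystem II, had the largest positive interaction of the list, 1.53. Of 16 mitochondrial genes, *ccb382* of cytochrome c maturation had -1.75 (adjusted p = 2.5e-06, standard error 0.18), and *nad9* and *nad6* of complex I had 0.82 and 0.87. The call of *nad9* was lost when any of 7 single arrays was left out.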

How the data were processed

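Whole seedlings of 4 genotypes were measured on 12 Affymetrix ATH1 arrays, 3 per genotype. The values are log2 signals that the authors deposited after RMA, per the labels; the software version is not given in the sources used here. RMA equalizes the arrays, so a general shift in RNA content would be removed. Arrays report no counts, and the precision is limited by 3 arrays per genotype.

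The 22746 probe sets other than the 64 controls were fitted in limma 3.58.1 (R 4.3.3) with 1 mean per genotype and empirical Bayes moderation. Interactions and pairwise differences were called at an adjusted p under 0.01 (Benjamini-Hochberg). A likeness to a single mutant was called where the 95% interval of the difference lay within 1.5-fold. Python 3.11.15, pandas 2.3.3 and matplotlib 3.10.9 served for the tables and the plots. The fit was tested on simulated data.

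Probe sets were named by the platform annotation (13513 with a single gene, 503 with several) and otherwise, for 1295, by gene identities in the study's tables; of 18 conflicting names the annotation was kept. The study's own fold changes and p-values were not used, and 0 array columns were left out. Named were, in each class, the 4 genes with the largest positive and the 4 with the largest negative interaction whose double mutant arrays did not overlap those of the genotype they differ from, and in each list the 3 members with the smallest adjusted p under 0.01. The members and lists were chosen with earlier results of these data known. Alternatives covered the scaling, threshold, controls, dim probe sets, probe sets per gene, variance model, array weights, the replicate block, the linear scale, the margin of likeness and the omission of each array. Promoter motifs were not analysed here.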

Additional observations from a re-analysis of the deposited data

Results flagged for a closer look

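Every called interaction is by its definition a difference between the effects of a mutation in the 2 backgrounds, which holds for 3128 probe sets. The effect was called in both backgrounds with opposite directions for 380 of them for *phyB-77* and 262 for *bri1-5*. These are all such probe sets on the array (1.67% and 1.15% of those tested). Called effects of opposite sign make an interaction call nearly certain, so their membership is no separate result.

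Among the genes named by rule, *phyB-77* acted in opposite directions without and with *bri1-5* on *DR4* (interaction 1.72), *ABCF5* (-2.76), *At3g14205* (-2.19), *At1g63310* (1.01), *LTP4* (-2.82), *TT19* (-2.52), *F3H* (-2.35), *UGT75C1* (-2.35) and *CCA1* (-1.84). The same held for *CYP85A2* (-1.73), *HYH* (-1.17), *NAP57* (-1.60), *NOP56* (-1.39), *CBF1* (2.13), *rpl22* (-1.97) and *rpl36* (-1.30).

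The effect of *bri1-5* had opposite directions without and with *phyB-77* for *COR15B* (2.2), *At4g28780* (1.57), *At2g43550* (1.41), *At4g34950* (1.41), *DAA1* (-3.39), *MLS* (-2.43), *CXE13* (-2.19), *At4g29690* (-1.57), *PORA* (-1.36), *LEA4-5* (-1.47) and *ECP63* (-1.34). For *At3g05900* (-2.56), *ELF3* (-1.34), *PIF1* (-1.58), *ROF2* (-1.75) and *ERD10* (-1.71), the effects of both mutations changed direction.

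Outside the probe sets of the comparison, the control for 25S ribosomal RNA was higher in *bri1-5* than in Ws-2 by 1.77 on the log2 scale. The 5S control differed by -0.12 and was not called.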

How the results depend on the processing

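The total of calls lay within 1.5-fold of 3128 in every alternative except an adjusted p under 0.05, which gave 5140 (1945 positive, 3195 negative), and no interaction call changed sign under another scaling. Median centring gave 1659 positive calls. Leaving out 1 array gave 2305 to 3314 calls, 789 to 1199 positive and 1516 to 2115 negative. The class counts were less stable: without 1 array the *phyB-77* level held 651 to 1105, the *bri1-5* level 309 to 527, the level of both 185 to 498, neither level 475 to 800 and the unplaced 273 to 691. Fewer arrays widen the intervals on which likeness rests. Leaving out any double mutant array moved 4 or more of these counts by over 1.5-fold, and omission of Ws-2 replicate 2 or 3 gave 302 and 290 at the level of both. Without *phyB-77* replicate 3 there were 306 at that level and 507 unplaced.

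An adjusted p under 0.05 gave 1587, 987, 1272, 1139 and 155 in the order of these classes. A narrower margin left 326 at the *phyB-77* level, 151 at the *bri1-5* level, 28 at the level of both and 1799 unplaced. A margin of 2-fold gave 526 at the *phyB-77* level, 2080 at the level of both, 145 at neither and 4 unplaced. Assignment to the nearest mean gave 1893 and 1235. Array weights left 162 unplaced. Which single mutant the double mutant resembles thus depends on the margin for many probe sets.

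In signal units rather than log2, 3036 interactions were called, 2804 of them on both scales and 3 of these in opposite directions. Among 102 genes checked, *XTH6* turned to -184.6 and *PRE3* to -6.24, and 7 lost the call. Leaving out the 40% dimmest probe sets kept 92 of these genes, all with the same result. Those left out for their low signal included *CBF1*, *At4g27654*, *At2g12050*, *ROF2*, *FMOGS-OX1*, *CYP90D1*, *GA2OX1* and *nad6*. With the replicate number as a block, 2981 interactions were called (1040 positive, 1941 negative) and *GA2OX2* lost its call. Deviations of arrays with the same number had a median correlation of 0.0099, against 0.00086 for different numbers, so no shared deviation by number was seen. This cannot show whether arrays with the same number were grown or processed together.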
